A study of Mus musculus with 2 samples.

Results

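The 7 miRNA genes described here, Mir139, Mir149, Mir326, Mir342, Mir346, Mir708 and Mir874, each lie in an intron of a protein-coding gene: Pde2a, Gpc1, Arrb1, Evl, Grid1, Tenm4 and Klhl3, in that order. They were chosen by name, by matching Ensembl identifiers without their version to the GENCODE mouse annotation of GRCm38, the assembly also called mm10, and all 7 were found among the 1973 miRNA genes of each count table. MicroRNA sequencing had been done on total RNA of the neural tube, the embryonic tissue that forms the brain and spinal cord, from B6NCrl mouse embryos at 14.5 days. The 2 libraries made up 1 group with no allele, agent or second tissue: replicate 1 was made from 1 embryo of dam 1, and replicate 2 from 1 embryo of dam 2. The labels name a single neural tube per sample and also a pooled sex, and the files do not settle which holds. The questions such a design can address are how abundant these genes were and how far the libraries differed.

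An intronic miRNA is cut out of a longer primary transcript, often the pre-messenger RNA of its host gene, by the Drosha and DGCR8 complex, and the hairpin is then cut by Dicer to leave a duplex of about the length of a mature miRNA. One or both strands of this duplex, the 5p and 3p arms, load into Argonaute and pair with target messages mainly through the seed, bases 2 to 8. The hosts act in different parts of the cell. Pde2a is a phosphodiesterase that degrades cyclic AMP and cyclic GMP, Arrb1 encodes a beta-arrestin that uncouples and scaffolds G protein-coupled receptors, and Grid1 encodes a delta glutamate receptor subunit of synapses. Gpc1 encodes a glypican, a heparan sulfate proteoglycan of the cell surface, and Tenm4 a teneurin, a transmembrane adhesion protein. Evl encodes an Ena/VASP protein that promotes actin filament growth, and Klhl3 an adaptor of the cullin 3 ubiquitin ligase best known from the kidney. Host messages were not measured here.

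The mature arms are shown because the seed decides which miRNAs can share targets, and because counts were made per gene, so that each level below belongs to both arms together. RefSeq (GRCm38.p6) held mature arms for 6 of the 7 genes and hairpins for 6. In the arms, capitals mark the seed.
miR-149-5p: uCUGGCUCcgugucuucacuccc
miR-149-3p: gAGGGAGGgacgggggcggugc
miR-342-5p: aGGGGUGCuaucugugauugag
miR-342-3p: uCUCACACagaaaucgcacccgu
miR-139-5p: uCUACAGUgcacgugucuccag
miR-139-3p: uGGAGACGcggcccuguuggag
miR-708-5p: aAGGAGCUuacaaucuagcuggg
miR-708-3p: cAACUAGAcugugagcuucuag
miR-346-5p: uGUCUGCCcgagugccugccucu
miR-346-3p: aGGCAGGGgcugggccugcagc
miR-326-5p: gGGGGCAGggccuuugugaaggcg
miR-326-3p: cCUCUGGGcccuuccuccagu
The 12 arms carried 12 distinct seeds, so the 6 genes with mature arms form no seed family among themselves. The seeds of Mir874 were not compared. The arms were 21 to 24 bases long, and their GC content ran from 45.5% in miR-708-3p to 81.8% in miR-149-3p.

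The hairpins of the 2 most abundant genes show where their arms sit, with the arms in capitals.
Mir149 hairpin: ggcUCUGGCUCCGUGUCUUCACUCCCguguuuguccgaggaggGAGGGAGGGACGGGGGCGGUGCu
Mir342 hairpin: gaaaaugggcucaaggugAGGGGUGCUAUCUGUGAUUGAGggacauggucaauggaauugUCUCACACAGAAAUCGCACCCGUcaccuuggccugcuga
For Mir874 the hairpin stands in for the arms and has no capitals.
Mir874 hairpin: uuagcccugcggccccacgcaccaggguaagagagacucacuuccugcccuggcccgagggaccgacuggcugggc
A read that fits several genome positions was counted for no gene. None of the 7 genes shared a run of 18 bases, on either strand, with the RefSeq sequences of a miRNA gene outside the 7. Mir708 was searched by its arms and Mir874 by its hairpin, and the rest of the genome was not searched.

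All 7 miRNA genes lay on the strand of their host, and no annotated host transcript had an exon that overlapped them. Intron numbers and distances refer to 1 coding transcript per host. Mir149 (chr1:92850378-92850443, plus strand) lay in intron 1 of Gpc1, 18.7 kb from the transcript start. Mir342 (chr12:108658620-108658718, plus strand) lay in intron 3 of Evl, 103.9 kb from the start. Mir874 (chr13:58023125-58023200, minus strand) lay in intron 8 of Klhl3, 90.4 kb from the start. These 3 sat in the later part of their hosts, at 64.3% to 79.7% of the transcript's span.

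Mir346 (chr14:34894609-34894706, plus strand) lay in intron 2 of Grid1, 74.5 kb from the start of a transcript that spans 763 kb. Mir708 (chr7:96249424-96249532, plus strand) lay in intron 1 of Tenm4, 37.8 kb from the start of a transcript of 697 kb. Both thus sat near the start of very long hosts, at 9.76% and 5.42% of the span, inside introns of 123 kb and 143 kb. Mir326 (chr7:99552269-99552363, plus strand) lay in intron 1 of Arrb1, 16.8 kb from the start. Mir139 (chr7:101475376-101475443, plus strand) lay in intron 2 of Pde2a, 53.7 kb from the start, and also within an intron of the overlapping annotated gene Gm45837. Mir708, Mir326 and Mir139 therefore follow each other on chromosome 7, with 3.30 Mb between the first pair and 1.92 Mb between the second.

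**Figure D1:**
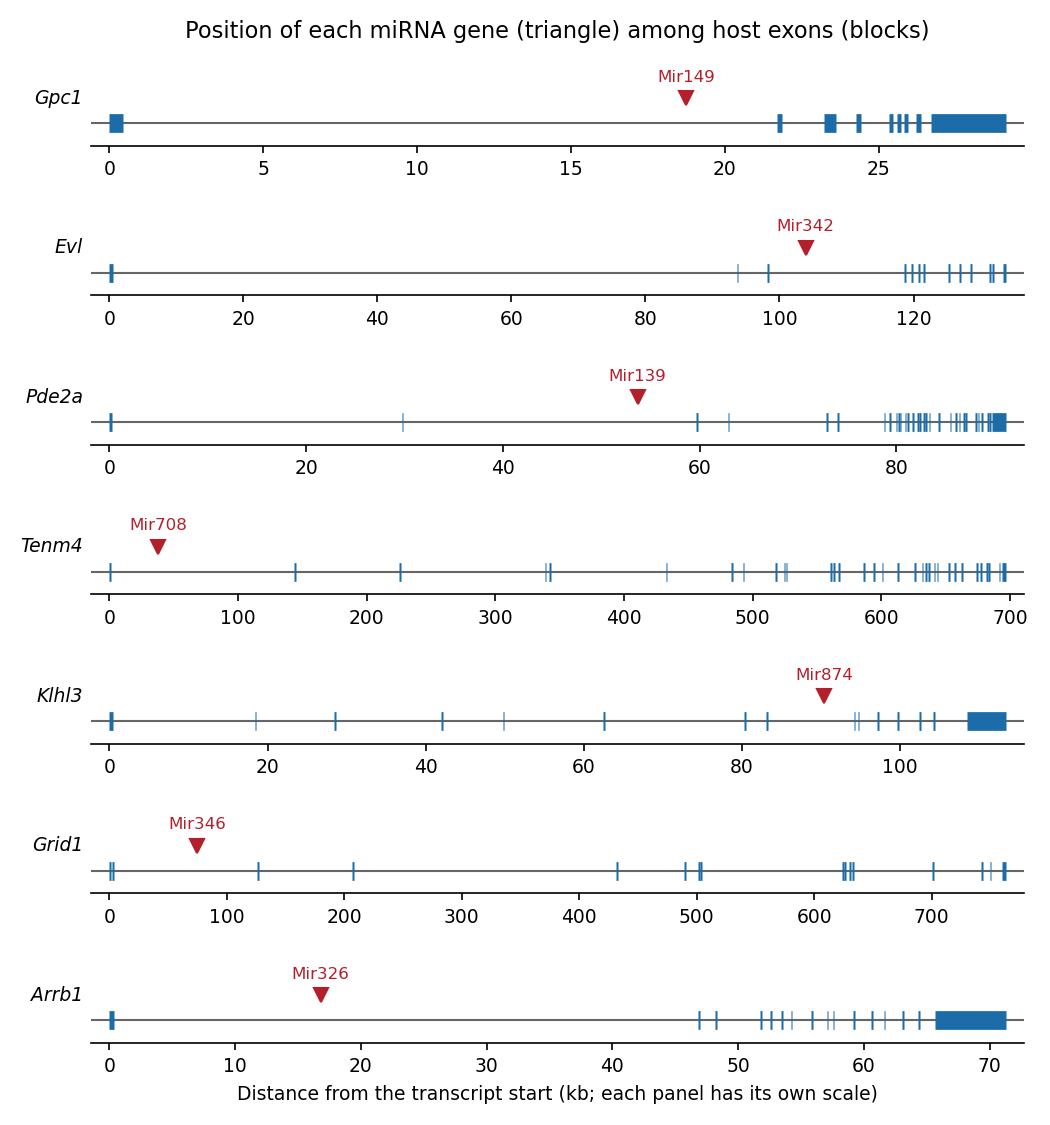
Each panel draws 1 host transcript from its start (left) to its end, in kb on a scale of its own, with exons as blocks (the shortest widened to be visible) and the miRNA gene as a triangle. Mir708 and Mir346 sit at 5.42% and 9.76% of the span of Tenm4 and Grid1, while Mir149, Mir342 and Mir874 sit at 64.3% of theirs or beyond.

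The libraries held 3172235 sense-strand counts on miRNA genes in replicate 1 and 3671915 in replicate 2. Levels are counts per 1000000 of these (CPM), as the mean ± SD over both libraries. Since 1 read stands for 1 arm whatever the length of the gene, CPM was not divided by length, and how well each sequence was captured in the library is unknown. Intervals and limits cover counting error only. In bulk tissue, fewer cells of a type and less RNA per cell cannot be told apart.

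The 7 genes together took 2.21% of sense counts in replicate 1 and 1.90% in replicate 2. Mir149 and Mir342 made up 85.5% of this sum in replicate 1 and 79.0% in replicate 2. At the other end Mir874, Mir346 and Mir326 made up 2.28% and 2.39% in replicates 1 and 2. The set thus held a pair of leading miRNA genes and a tail of low ones. Mir149, the miRNA gene of the glypican host, had 36039 counts in replicate 1 and 32888 in replicate 2, or 11361 and 8957 CPM. Its mean of 10159 ± 1700.0 CPM (SD, n = 2) was the 14th highest of all miRNA genes. Shares and ranks here rest on reads that fitted 1 position. Reads at several positions, 32.4% of replicate 1 and 33.3% of replicate 2, were counted for no gene. Genes with several near-identical copies can therefore rank too low. Mir342, in the actin regulator gene Evl, had 23884 counts in replicate 1 and 22132 in replicate 2, or 7529 and 6027 CPM. At 6778 ± 1062 CPM it ranked 20th.

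Mir139 and Mir708 came next. Mir139, in the phosphodiesterase gene, had 4628 counts in replicate 1 and 7652 in replicate 2, or 1459 and 2084 CPM. Its mean was 1771 ± 442 CPM, rank 67. Mir708, in the teneurin gene, had 3914 and 5329 sense counts in replicates 1 and 2, or 1234 and 1451 CPM. Its mean was 1343 ± 154 CPM, rank 72. For both genes the level was higher in replicate 2 on this scale. Mir139 in replicate 1 barely exceeded Mir708 in replicate 2, at 1459 against 1451 CPM.

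The 3 low genes were Mir874, Mir346 and Mir326. Mir874, in Klhl3, had 845 counts in replicate 1 and 818 in replicate 2, or 266 and 223 CPM, with a mean of 245 ± 30.8 CPM. Mir346, in the glutamate receptor gene, had 635 and 582 counts in replicates 1 and 2, or 200.2 and 159 CPM, with a mean of 179 ± 29.5 CPM. Mir326, in the beta-arrestin gene, had 119 counts in replicate 1 (95% exact binomial interval 31.1 to 44.9 CPM) and 262 in replicate 2 (63.0 to 80.5 CPM). Its mean was 54.4 ± 23.9 CPM, rank 224, and its SD was the largest of the 7 relative to the mean. The median over the 329 miRNA genes that reached 10 counts in each library was 170.2 CPM, which Mir346 was close to and Mir326 lay below.

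In the order Mir149, Mir342, Mir139, Mir708, Mir874, Mir346 and Mir326, the 2 library values of each gene did not overlap those of the next. The gaps differed in size. Means differed 3.83-fold between Mir342 and Mir139, 5.49-fold between Mir708 and Mir874 and 3.29-fold between Mir346 and Mir326. Within the close pairs they differed 1.50-fold (Mir149 and Mir342), 1.32-fold (Mir139 and Mir708) and 1.36-fold (Mir874 and Mir346). With 2 libraries the spread of a single gene is poorly known, and edgeR's estimate over all tested genes was a coefficient of variation of 30.1%. The gaps within these 3 close pairs are of that size. Both genes of a pair are measured in the same library, and within a library the first of each pair was the higher in both: 1.51-fold and 1.49-fold for Mir149 over Mir342 in replicates 1 and 2, 1.18-fold and 1.44-fold for Mir139 over Mir708, and 1.33-fold and 1.41-fold for Mir874 over Mir346.

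**Figure D2:**
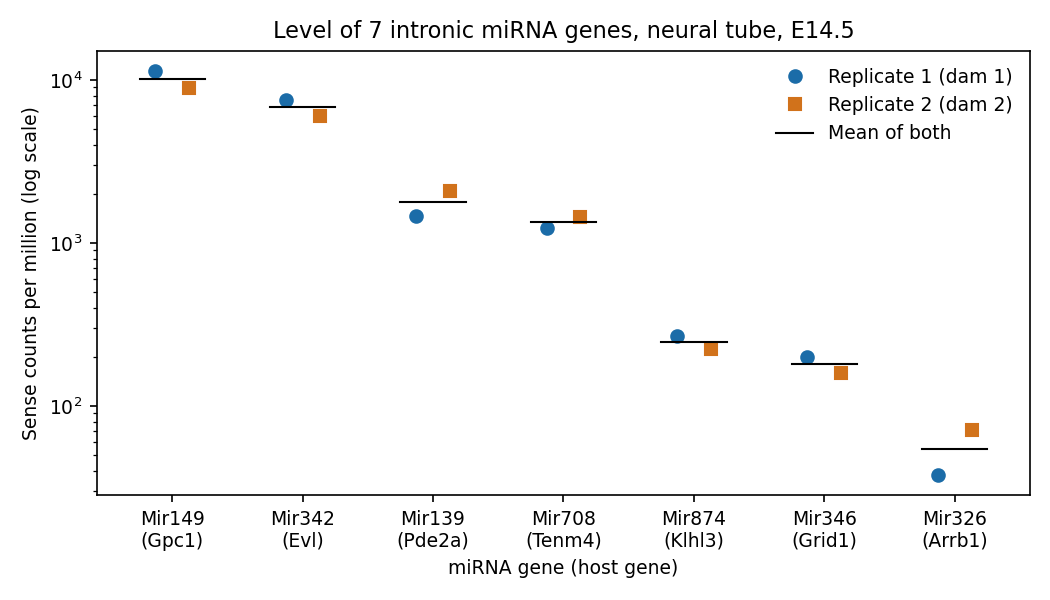
Sense CPM (log axis) of the 7 genes, with the host in brackets, for replicate 1 (circles) and replicate 2 (squares), and a bar at the mean. Mir149 and Mir342 stand at 6027 CPM and above in both libraries, and Mir326 lies lowest at 37.5 CPM in replicate 1 and 71.4 CPM in replicate 2.

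All 7 genes reached 10 counts in each library, which is called detected here. Of the 658 miRNA genes annotated in introns of protein-coding genes on the same strand, 119 (18.1%) did, against 16.7% of all miRNA genes in the table. The 119 had a median of 187 CPM. Among intronic genes Mir149 ranked 6th, Mir342 10th, Mir139 24th, Mir708 26th, Mir874 55th, Mir346 63rd and Mir326 80th. These ranks are a description, since the 7 names were chosen with levels known.

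A hand-made list of 15 other hosted miRNA genes, most of them in genes known from the nervous system, gives a measure of the setting. All 15 were detected, and they took 0.838% of counts in replicate 1 and 0.723% in replicate 2, below the share of the 7. Mir598, in Xkr6, led this list at 3046 and 2924 CPM in replicates 1 and 2. Mir128-1, in R3hdm1, had 1751 and 896 CPM, Mir153, in Ptprn2, 961 and 961 CPM, and Mir128-2, in Arpp21, 747 and 396 CPM in replicates 1 and 2. The 2 Mir128 genes yield near-identical miRNAs, so their counts rest on reads that fitted 1 position. By the mean of both libraries, 0 of the 15 stood above Mir149 or Mir342, 1 stood above Mir139 and Mir708, and 12 stood above Mir326. In replicate 1 alone Mir128-1 also stood above Mir139 and Mir708, and its mean of 1324 CPM was close to the 1343 CPM of Mir708.

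**Figure D3:**
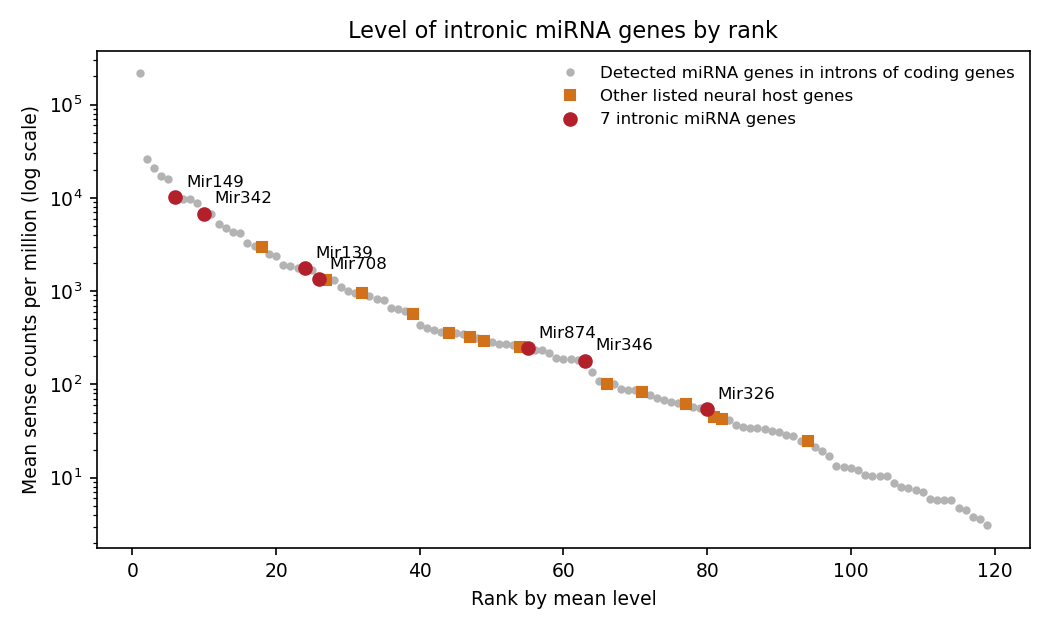
Mean sense CPM (log axis) of the 119 detected miRNA genes in introns of coding genes, ordered by level, with the 7 genes as circles and those of the other listed host genes that lie in introns as squares. Mir149 is 6th and Mir326 80th.

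Seeds tied 2 of the 6 genes with mature arms to other detected miRNAs. The seed of miR-708-5p is also that of miR-28a-5p, from Mir28a in an intron of Lpp, and the seed of miR-326-3p is also that of miR-330-5p, from Mir330 in Eml2. The pairs are printed with their seeds in capitals.
miR-708-5p: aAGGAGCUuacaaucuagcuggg
miR-28a-5p: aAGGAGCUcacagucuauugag
miR-326-3p: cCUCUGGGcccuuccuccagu
miR-330-5p: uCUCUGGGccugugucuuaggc
Counted from the 5′ end without gaps, miR-708-5p and miR-28a-5p had the same base at 16 of 22 positions, and miR-326-3p and miR-330-5p at 12 of 21. Counts cover both arms of a gene, so the levels below compare genes and not the arms that share the seed. In the first pair the teneurin-hosted gene was the more abundant. Mir28a had 841 counts in replicate 1 and 1324 in replicate 2 (265 and 361 CPM), so that Mir708 exceeded it 4.65-fold in replicate 1 and 4.02-fold in replicate 2. In the second pair the order was turned round. Mir330 had 1184 counts in replicate 1 and 1441 in replicate 2 (373 and 392 CPM), and exceeded Mir326 9.95-fold in replicate 1 and 5.50-fold in replicate 2. Of 8 arms, among them both arms of Mir139 and Mir342, RefSeq held no other mouse miRNA with the same seed. The other shared seeds, those of miR-149-3p with 4 genes and of miR-346-3p with 1, belonged to genes with at most 2 counts in a library. Among the 4, Gm27740 and Gm27775 carry the same arm, miR-6967-5p. Reads that fit both of these were counted for neither, so their counts of 0 do not show absence.

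Sense and other-strand reads were counted apart. Mir708 had 5 other-strand counts in replicate 1 and 11 in replicate 2, which is 0.128% (95% exact binomial interval 0.0414 to 0.297) and 0.206% (0.103 to 0.368) of its counts on either strand. Mir708 was thus read almost entirely in the direction of Tenm4. The share pooled over all miRNA genes was 1.26% and 1.49% in replicates 1 and 2, but this is not the share of a typical abundant gene. Of the 123 miRNA genes with at least 1000 sense counts in each library, 104 had 0 other-strand counts in both. The other 6 genes had 0 other-strand counts in both libraries. For Mir149 the 95% exact binomial interval of the share then reached 0.0102% in replicate 1 and 0.0112% in replicate 2. For Mir326 it reached 3.05% in replicate 1 and 1.40% in replicate 2.

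Between the libraries the 7 genes differed in both directions. Each ratio below is replicate 1 over replicate 2 after TMM scaling, which trims extreme genes before it sets the library sizes, with a 95% interval from counting. A gene was called where a two-sided exact binomial test gave a Benjamini-Hochberg adjusted p below 0.05 over the 360 genes tested and the ratio was at least 2-fold. With 1 library per dam this compares libraries, not litters. Of the 7 genes 0 were called, where 10.3% of all tested genes were (3.89% higher in replicate 1 and 6.39% higher in replicate 2). Without the fold minimum 6 of the 7 passed by the exact binomial test (also 6 at an unadjusted p below 0.05), where 56.7% of all tested genes did. Of these 6, 4 were higher in replicate 1, as were 29.2% of all tested genes, and 2 were higher in replicate 2, as were 27.5%. With edgeR's exact test and an assumed coefficient of variation of 0.2, 0 of the 7 were called, where 5.83% of all tested genes were. Since no ratio of the 7 reached 2-fold, this change of test could not have added a call. The assumed spread is below the coefficient of variation of 30.1% estimated from these libraries.

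The 4 genes higher in replicate 1 had close ratios. The log2 ratio was 0.56 for Mir149 (interval 0.53 to 0.58), 0.53 for Mir342 (0.51 to 0.56), 0.55 for Mir346 (0.38 to 0.71) and 0.47 for Mir874 (0.33 to 0.61). The highest 2 and 2 of the lowest 3 genes thus differed by nearly the same factor, 1.39-fold to 1.47-fold. The genes lie on 4 different chromosomes. Mir708, at -0.02 (-0.08 to 0.04), had an interval that included 0 under TMM scaling. That depends on the scaling: with total counts it stood at -0.23 and passed the exact binomial test without the fold minimum (adjusted p = 3.73e-14, in a range up to 1 over the alternatives), as the other 6 genes did under TMM.

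Mir139 and Mir326, both on chromosome 7, were higher in replicate 2. Mir708, on the same chromosome, stood at -0.02 (-0.08 to 0.04). The log2 ratio was -0.30 (-0.35 to -0.25) for Mir139 (exact binomial test, adjusted p = 7.04e-29) and -0.71 (-1.04 to -0.40) for Mir326 (exact binomial test, adjusted p = 1.34e-05). Mir326 thus reached 1.64-fold, the largest difference of the 7. Ratios of 2 genes within a library need no scaling, and they restate the same split from the same counts. Mir342 exceeded Mir139 5.16-fold in replicate 1 and 2.89-fold in replicate 2, and Mir346 exceeded Mir326 5.34-fold in replicate 1 and 2.22-fold in replicate 2.

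The median log2 ratio of the 7 was 0.47, against -0.02 over all tested genes, and the median size without sign was 0.53 against 0.29. By that size Mir326 lay above 79.2% of tested genes and Mir149 above 74.2%. Most tested genes thus differed less than either, while 10.3% were called at 2-fold or more. The tested genes include some with few counts, whose ratios are less certain. Scaling by total counts lowered all ratios by 0.21, which took the median of the 7 to 0.26 and Mir326 to -0.92 and left each of the 7 signs as it was. The 15 other listed host genes had a median of 0.15. Of the 15, 2 were called, where 10.3% of all tested genes were. Both were higher in replicate 1, Mir128-1 (1.18) and Mir128-2 (1.13), where 3.89% of all tested genes were called in that direction. They yield near-identical miRNAs and their counts rest on reads that fitted 1 position, so the 2 calls may not be separate.

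**Figure D4:**
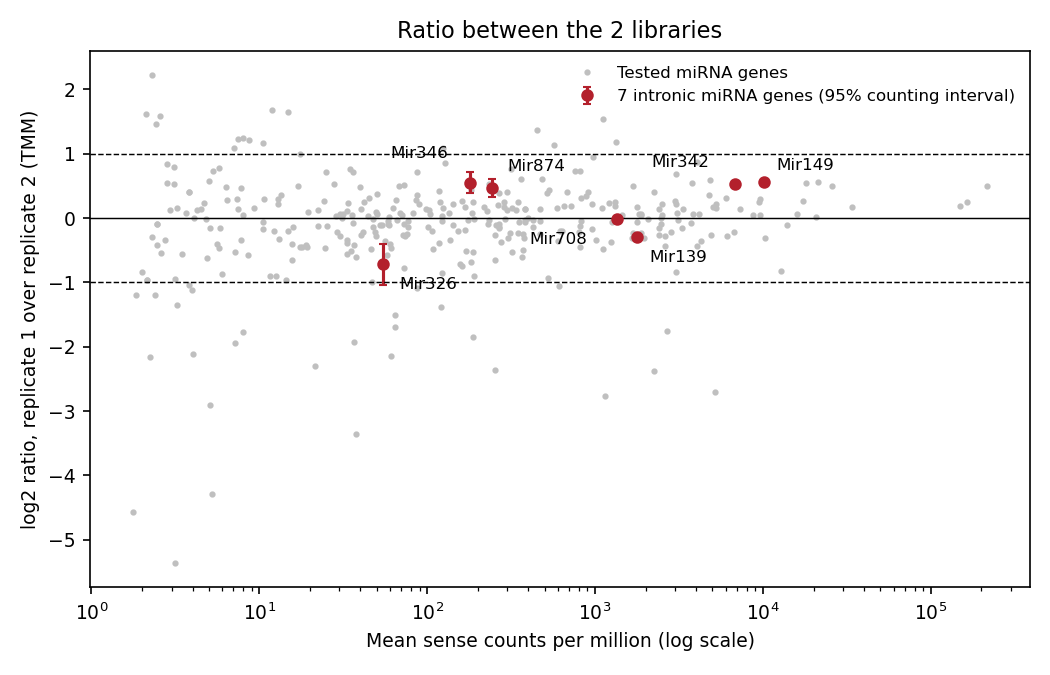
Log2 ratio of replicate 1 over replicate 2 against mean level (log axis) for the 360 tested miRNA genes (grey) and the 7 intronic genes (red, with 95% counting intervals, which are smaller than the symbol for the abundant genes), with dashed lines at 2-fold. The 7 points lie between -0.71 and 0.56, inside the dashed lines, and the interval of Mir326 reaches -1.04.

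Lists of miRNA genes typical of other cells are given beside these ratios, as summed CPM and as counts of called members on the TMM scale, where 10.3% of all tested genes were called. The 3 sensory genes summed to 2109 CPM in replicate 1, against 15050 CPM in replicate 2, and 3 of 3 were called higher in replicate 2. The 7 mesenchymal genes (5 detected) summed to 3502 CPM in replicate 1, against 7561 CPM in replicate 2, with 5 of 6 tested called higher in replicate 2 and Mir140 at a log2 ratio of 0.00. The endothelial gene Mir126a stood at 8443 and 17271 CPM in replicates 1 and 2, a log2 ratio of -0.82 that was not called. The blood lists were mixed. The 4 leukocyte genes measured (Mir142 was not analysed here), all detected, summed to 152 CPM in replicate 1, against 280 CPM in replicate 2, with 1 called, Mir223 at -2.14, while Mir150 and Mir155 stood at -0.11 and -0.09. The 3 erythroid genes summed to 94.3 CPM in replicate 1, against 113 CPM in replicate 2, yet the 1 called, Mir486 at 1.68, was higher in replicate 1. The 10 neuronal genes (8 detected) summed to 12051 CPM in replicate 1, against 12156 CPM in replicate 2, most of it from Mir137. Of these, 0 of 9 tested were called, and members differed in both directions, with Mir132 at 0.74 and Mir138-1 at -0.47. The 3 oligodendrocyte genes summed to 2674 and 2541 CPM in replicates 1 and 2, with 0 called, Mir219a-2 at 0.40 and Mir338 at -0.65. No listed marker was at 0 in both libraries. Neuronal Mir137 was abundant, at 9457 ± 193 CPM, whereas each Mir124a copy averaged at most 6.44 CPM, where reads that fit several copies are counted for none. The part of these other cells in the ratios of Mir139 and Mir326 was not tested.

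The gene nearest to each of the 7 over both libraries was found by the Euclidean distance of log2(CPM + 1), a likeness over 2 values that says little beyond level. Mir326 was nearest to Mir33, in an intron of Srebf2, at 38.5 and 72.7 CPM in replicates 1 and 2 (distance 0.0441). Mir139 was nearest to Mir296, at 1421 and 1941 CPM (distance 0.109), and Mir708 to Mir154 of the Mirg cluster, at 1137 and 1370 CPM (distance 0.144). Mir346 was nearest to Mir672, in an intron of Nexmif on the X chromosome, at 197 and 169 CPM (distance 0.0975). Mir874 was nearest to Mir669o, of a family with many near-identical copies whose counts are uncertain, at 260 and 208 CPM (distance 0.105). Mir149 was nearest to Mir615, in an intron of Hoxc5, at 9940 and 9347 CPM (distance 0.202), and Mir342 to Mirlet7b, at 6219 and 5792 CPM (distance 0.282).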

How the data were processed

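The authors deposited raw read counts per miRNA gene, 1 table per library, with columns for either strand, the sense strand and the other strand. Per the deposited text notes, they derive from alignments to mm10 with GENCODE annotation M4. The sources used here do not name the aligner, the trimming or the read filters. Rows that name no gene were left out of library sizes: unmapped reads were 11.5% of replicate 1 and 11.8% of replicate 2, and reads at several positions 32.4% and 33.3%.

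Symbols and positions came from GENCODE M21 (GRCm38), which matched 1894 of 1973 identifiers, and sequences from RefSeq (GRCm38.p6). Host transcripts were the longest APPRIS principal coding transcript around each gene. CPM used the sense column. The written plan entered Mir708 by its other-strand counts. Since its reads lay on the sense strand, sense counts were used, and the plan's version is an alternative.

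A gene was tested if either library held at least 10 of its counts, by a two-sided exact binomial test against TMM-scaled library sizes (edgeR 4.0.16, R 4.3.3, scipy 1.17.1), with Benjamini-Hochberg adjustment and a prior count of 0.5 in ratios. A quasi-likelihood test could not be run, since 1 library per dam leaves no residual degrees of freedom. DESeq2 1.42.0 gave alternative size factors. The functions were tested on simulated counts that held counting error only. That does not show how they do under the wider spread between these libraries. Nothing says whether p-values reflect more than technical spread. Genes named were the 7, the 4 highest of the 15 other host genes, those that share a seed, and the nearest gene of each. Single marker genes were added later, with their values known. The members and lists were chosen with earlier results of these data known.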

Additional observations from a re-analysis of the deposited data

Results flagged for a closer look

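Mir708 held other-strand counts, 5 in replicate 1 and 11 in replicate 2, in a column that its level does not use. Both exceed the limit of 3 counts that a count of 0 allows. Of the 123 miRNA genes with at least 1000 sense counts in each library, 104 had 0 other-strand counts in both libraries and 2 exceeded 3 such counts in both.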

How the results depend on the processing

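The count of called genes among the 7 was 0 under total-count scaling, DESeq2 size factors, no filter on low counts, a filter of 100 counts, an assumed coefficient of variation of 0.2, counts on either strand and Mir708 by its other-strand counts. None of the 7 ratios reached 2-fold in any of these settings, so the filters and the assumed variation could not have added a call. Without the fold minimum, chosen after the data were seen, the count was 6. Over all genes 37 were called, against 20 of 282 with the filter of 100 counts, 21 with the assumed variation and 204 without the fold minimum. With the assumed variation, edgeR's exact test gave the 7 genes adjusted p from 0.631 to 1. Total-count scaling moved the share of calls higher in replicate 2 to 81.4%, from 62.2%. Each of the 7 log2 ratios kept its sign in all settings run. The filters and the assumed variation do not enter the ratio, so only the scaling, the strand counted and the prior count could move it. Mir708 ranged from -0.23 to -0.0049 by sense counts and stood at -0.66 by other-strand counts, which are too few to compare. The summed level of the 7 was 20529 CPM, 10820 with all reads as denominator, where every single level moved alike, and 18972 to 22087 with 1 library left out. The other-strand share of Mir708 was 0.128% to 0.206% in single libraries. No paired analysis was possible because the series holds 1 group. Depth limits Mir326 most, with 119 and 262 counts in replicates 1 and 2, and 2 libraries limit every SD.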
